A study of Mus musculus with 12 samples.

Results

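The 33 genes described here make amino acids and one-carbon units or charge transfer RNAs in the cytosol. They were chosen by gene name, with no measured value in the rule, from the 41325 genes of the deposited count tables. Earlier results of these data were known when the choice was made. Of the 33, 15 encode enzymes of serine, one-carbon, asparagine, aspartate, glutamine, proline or cysteine synthesis, and 18 encode cytosolic aminoacyl-tRNA synthetases. All 33 were found by name in both tables.

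Counts came from RNA sequencing of IMG cells, which are mouse microglia, the macrophages of brain tissue, grown as an immortalised line. Every library was from wild-type C57Bl6/J cells at one passage. The cells were held for 8 h with fAb, with oAb or with scramble, and each group had 4 of the 12 libraries. fAb and oAb are preparations of amyloid beta, the peptide of Alzheimer's disease plaques. The series' design text attaches the word oligomeric to fAb and fibrillar to oAb, whereas the letters point to the opposite reading, so both groups keep their label names here. A single immortalised line at a single time limits the groups as a model of microglia in tissue. The labels do not speak of separate cultures. The p-values below therefore weigh differences against the spread of these libraries, and that spread may be technical.

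Serine is made from a glycolytic intermediate in 3 steps by Phgdh, Psat1 and Psph. Serine then gives a carbon to folate through the hydroxymethyltransferases Shmt1 in the cytosol and Shmt2 in mitochondria, and the Mthfd enzymes carry that carbon on to formate for purine, thymidylate and methionine synthesis. Asns makes asparagine from aspartate and glutamine. Aminoacyl-tRNA synthetases attach each amino acid to its tRNA, and several of them sit together in a large multisynthetase complex. In mammalian cells short of amino acids or under other stress, phosphorylation of the translation factor eIF2 alpha raises translation of the transcription factor Atf4. Atf4 binds C/EBP-ATF composite sites, also called amino acid response elements, in many of these genes.

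The letters TGATGNAA, the core of the amino acid response element, were looked for on both strands of the promoter windows of the members, from 250 bases before to 50 bases after each gene's RefSeq start in GRCm38.p6. Of the 33 members, 26 were matched to a window, with 27 windows in all. Cars, Hars, Lars, Nars, Rars, Vars and Wars were not. The letters were present for 8 members, in 29.6% of the 27 member windows. They were in 3.97% of all 32851 promoter windows and in 2.26% of the 11088 windows of genes tested in the fAb comparison. Each stretch below is shown because it holds such a match. It runs 5′ to 3′ on the gene's own strand over 48 bases, with the match in capitals. Capitals that begin with TT are the same letters read on the other strand.
Asns: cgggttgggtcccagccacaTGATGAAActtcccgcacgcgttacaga
Tars: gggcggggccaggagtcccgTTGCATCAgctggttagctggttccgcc
Aars, upstream match: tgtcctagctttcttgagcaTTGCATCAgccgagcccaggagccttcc
Aars, downstream match: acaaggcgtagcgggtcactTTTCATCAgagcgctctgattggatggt
Gars: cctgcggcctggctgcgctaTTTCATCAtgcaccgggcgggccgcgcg
Iars: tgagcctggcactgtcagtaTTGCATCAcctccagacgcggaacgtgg
Yars: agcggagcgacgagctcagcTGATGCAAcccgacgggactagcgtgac
Got1: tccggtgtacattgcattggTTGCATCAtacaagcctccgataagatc
Pycr1: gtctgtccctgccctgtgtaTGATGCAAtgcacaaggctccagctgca

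The stretches lie at chr6:7693205-7693252 on the minus strand (Asns), chr15:11399646-11399693 on the minus strand (Tars), chr8:111033710-111033757 and chr8:111033831-111033878 on the plus strand (Aars), and chr6:55037951-55037998 on the plus strand (Gars). The others are chr13:49682117-49682164 on the plus strand (Iars), chr4:129189886-129189933 on the plus strand (Yars), chr19:43524680-43524727 on the minus strand (Got1) and chr11:120643824-120643871 on the minus strand (Pycr1). The matches began between base -112 (the upstream match of Aars) and base 9 (its downstream match) relative to the start, with that of Asns at -23. None of the 9 overlapped another motif searched. Asns, Aars, Gars, Iars, Tars and Yars rose in both treatments, whereas Got1 and Pycr1 did not pass the test in either. Of the 11 members with a window that rose in both treatments 6 held the letters, against 2 of the 15 others with a window. Among all tested genes the letters were in 2.92% of windows of genes that rose in fAb, 2.07% of those that fell and 1.97% of those that did not pass. The members were chosen with results of these data known, so these shares are a description with no test, and a match does not show that a factor binds.

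Other motifs were searched in the same windows on both strands. The E-box CACGTG was in the windows of 5 members (Aars, Aldh18a1, Cbs, Iars and Tars), 18.5% of member windows against 7.15% of all windows and 10.4% of windows of tested genes. The gamma-activated site TTCNNNGAA was in those of 4 members (Aars, Aldh18a1, Kars and Shmt2), 14.8% against 8.30% and 6.77%. The interferon-stimulated response element GAAANNGAA was in those of 2 members (Glul and Qars), 7.41% against 8.56% and 7.49%.

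Libraries held 13638721 to 18124419 counts, of which the 33 genes took 0.714% to 0.732% in fAb, 0.701% to 0.723% in oAb and 0.644% to 0.678% in scramble. The macrophage markers Csf1r and Cd68 were at 587 CPM (counts relative to the TMM-scaled library size) or more in every library, whereas the microglial markers Tmem119 and C1qa were at 2.25 CPM or less. The 12 microglia markers summed to 3517 to 3809 TPM in fAb, 3391 to 3933 TPM in oAb and 4902 to 5415 TPM in scramble. Of the 11 tested, 2 rose and 7 fell in fAb and 2 rose and 6 fell in oAb. On the log2 scale Trem2 (-2.08 ± 0.20), P2ry12 (-2.92 ± 0.29) and C1qa (-4.53 ± 0.71) fell in fAb, and Cx3cr1 (0.59 ± 0.10) rose. Fewer cells of a type and less RNA per cell cannot be told apart in bulk samples. Markers of astrocytes, neurons and fibroblasts were low. Astrocyte markers summed to 0.321 to 0.551 TPM in fAb, 0.194 to 0.338 TPM in oAb and 0.114 to 0.162 TPM in scramble. Neuron markers summed to 1.61 to 2.19 TPM in fAb, 1.67 to 2.12 TPM in oAb and 0.139 to 0.716 TPM in scramble, and fibroblast markers to 0.875 to 1.38 TPM, 1.14 to 1.72 TPM and 0 to 0.0569 TPM in the same groups. These sums were higher in treated libraries without overlap. In each of these lists 1 of 4 genes was tested, Gja1, Map2 and Dcn, and rose in both treatments, while Aqp4, Rbfox3, Syt1 and Snap25 were at 0. Oligodendrocyte markers summed to 15.6 to 16.7 TPM in fAb, 14.0 to 15.3 TPM in oAb and 26.4 to 48.2 TPM in scramble, nearly all from Mbp, with Mog at or near 0. Transcripts of the mitochondrial genome took 2.73% to 2.94% of counts in fAb, 2.73% to 3.37% in oAb and 4.18% to 4.94% in scramble. Scramble library 3 stood apart, with correlations of log2 CPM of 0.944 to 0.965 with the other scramble libraries, against 0.981 to 0.991 among those. Libraries also fell into 2 sets by how counts were split between Timm23 and its near copy Gm10273. All fAb libraries, oAb 3 and 4 and scramble 1 were in the Gm10273 set, and oAb 1 and 2 and scramble 2, 3 and 4 in the Timm23 set. The labels name no batch. The part of the markers and of the mitochondrial share in the results was not tested. Where a member's call differed within a set, with the set as a term of the fit or without scramble 3, that value is given with the gene. The Gm10273 set holds 1 scramble library, and the Timm23 set holds 2 oAb and 3 scramble libraries.

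In scramble cells the most abundant member per unit of length was Phgdh at 514 ± 54.3 TPM (transcript level scaled by length and library, SD, n = 4). Got2 at 308 ± 15.0 TPM, Nars at 303 ± 46.2 TPM and Shmt2 at 270.4 ± 20.4 TPM came next, each overlapping its neighbour in this order. Asns was in the lower part at 89.0 ± 2.67 TPM. At the low end, Mthfd2 at 56.6 ± 2.08 TPM, Aars at 47.4 ± 3.02 TPM, Cars at 19.8 ± 1.75 TPM, Psph at 11.5 ± 1.03 TPM, and Pycr1 at 2.18 ± 0.297 TPM each had all 4 libraries above those of the next gene. Last came Cbs, which starts the transsulfuration of homocysteine to cysteine, at 0.371 ± 0.152 TPM. It had 11 counts over the 4 fAb libraries, 8 over the oAb libraries and 27 over the scramble libraries, and was too low to be tested. The other 32 members were tested.

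The design sets each preparation against scramble. In fAb cells 18 of the 32 tested members rose and 6 fell at an adjusted p under 0.05 (edgeR's quasi-likelihood F test, Benjamini-Hochberg over all 11074 genes tested). Over all tested genes 27.6% rose and 28.8% fell, 56.3% in all, so a call in either direction is common in these data. The median log2 fold change was 0.45 over the members and -0.037 over all genes. In 23 members the fAb and scramble libraries did not overlap, against 55.4% of all tested genes.

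In oAb cells 17 members rose and 4 fell, where 25.2% of 11033 tested genes rose and 27.0% fell, 52.2% in all. The median log2 fold change was 0.37 over the members and -0.068 over all genes. No overlap was seen in 22 members, against 51.1% of all genes. The 17 that rose in oAb were among the 18 that rose in fAb, and the 4 that fell in oAb were among the 6 that fell in fAb. Both comparisons use the same scramble libraries, so they are not independent.

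**Figure D1:**
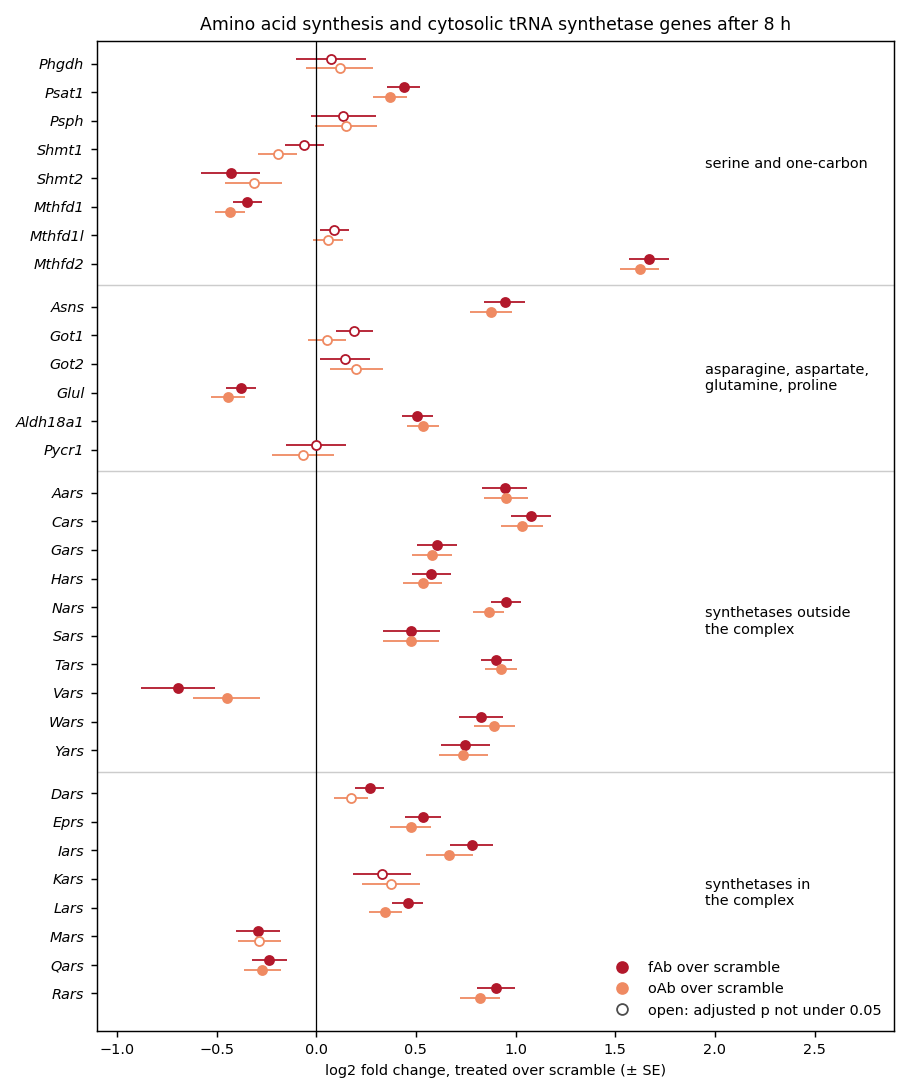
Log2 fold change of each of the 32 tested members in fAb (upper point of each pair) and oAb (lower point) over scramble, with bars of 1 SE, n = 4 libraries per group and genes grouped by role. Open points did not pass an adjusted p of 0.05. Mthfd2 lies farthest to the right, most synthetases lie right of 0, and Vars, Shmt2, Glul, Mthfd1, Mars and Qars lie left of 0.

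Of the 14 amino acid genes tested, 4 rose in both treatments (Mthfd2, Asns, Aldh18a1 and Psat1) and 2 fell in both (Mthfd1 and Glul). Shmt2 also fell in fAb. The share of the 14 that rose is near that of all tested genes given above, and the share that fell is below it. The other 7, and in oAb Shmt2 with them, did not pass the test. The median log2 fold change of the 14 was 0.11 in fAb and 0.089 in oAb, against the all-gene medians above.

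Mthfd2 (ENSMUSG00000005667, chr6:83305691-83325908 on the minus strand of mm10), a mitochondrial methylene-tetrahydrofolate dehydrogenase and cyclohydrolase, rose most among the members. It had 199, 197, 209 and 211 CPM in fAb, 196, 207, 201 and 205 CPM in oAb and 60.8, 60.8, 76.9 and 64.7 CPM in scramble. Every treated library was above every scramble library. The fold change was 3.18 in fAb (log2 1.67 ± 0.10 SE, edgeR adjusted p = 9.21e-07) and 3.08 in oAb (log2 1.62 ± 0.10, edgeR adjusted p = 9.81e-07).

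Mthfd1, the cytosolic enzyme with 3 folate activities, was lower in treated cells, with 112, 109, 116 and 116 CPM in fAb, 112, 109, 109 and 107 CPM in oAb and 139, 148, 152 and 151 CPM in scramble. No treated library reached the lowest scramble library. It fell by 0.35 ± 0.074 on the log2 scale in fAb (edgeR adjusted p = 0.00313) and by 0.43 ± 0.075 in oAb (edgeR adjusted p = 0.00101). With the library set as a term it was at -0.24 in fAb, where the call was lost (edgeR adjusted p = 0.129). The ratio of Mthfd2 to Mthfd1 in TPM was 2.30 ± 0.0249 in fAb and 2.36 ± 0.0998 in oAb, against 0.567 ± 0.0525 in scramble (SD, n = 4). By length-scaled level, the mitochondrial gene was thus below the cytosolic one in every scramble library and above it in every treated one. Mthfd1l, which makes formate in mitochondria, averaged 161 ± 6.69 CPM in fAb, 161 ± 3.78 CPM in oAb and 155 ± 7.79 CPM in scramble and did not pass the test.

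Among the hydroxymethyltransferases, Shmt2 had 214, 168, 214 and 223 CPM in fAb, 244, 239, 194 and 230.2 CPM in oAb and 225, 263, 351 and 291 CPM in scramble. The fAb libraries were all below the lowest scramble library, 3 of them by little, and oAb libraries overlapped with scramble. It fell in fAb (log2 -0.43 ± 0.15, edgeR adjusted p = 0.0348) and did not pass in oAb (-0.31 ± 0.14, edgeR adjusted p = 0.0952). In TPM, which was not tested, Shmt2 was at 185 ± 17.7 in fAb, 194 ± 22.7 in oAb and 270.4 ± 20.4 in scramble. The call for Shmt2 in fAb was lost when any 1 fAb library or scramble 4 was left out. Within the Gm10273 set it was at -0.072 in fAb and -0.046 in oAb and passed in neither, and with the set as a term it was at -0.080 in fAb. Shmt1, the cytosolic form, averaged 68.9 ± 3.50 CPM in fAb, 64.4 ± 1.64 CPM in oAb and 73.8 ± 7.62 CPM in scramble and did not pass. Shmt1 passed as lower in oAb within the Gm10273 set, at -0.26 on the log2 scale (edgeR adjusted p = 0.00898).

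Asns (ENSMUSG00000029752, chr6:7675169-7693254 on the minus strand) had 151, 149, 151 and 159 CPM in fAb, 139, 144, 154 and 158 CPM in oAb and 75.6, 75.0, 96.9 and 77.8 CPM in scramble. All scramble libraries were below all treated ones, with scramble 3 the highest of them. The rise was 1.92-fold in fAb (log2 0.94 ± 0.10, edgeR adjusted p = 5.07e-05) and 1.84-fold in oAb (log2 0.88 ± 0.11, edgeR adjusted p = 9.98e-05). Glul, which makes glutamine from glutamate and ammonia, had 90.0, 93.5, 97.7 and 94.8 CPM in fAb, 86.1, 86.3, 101 and 94.4 CPM in oAb and 121, 120.4, 130.4 and 128 CPM in scramble. It fell in both treatments without overlap, by 0.38 ± 0.075 on the log2 scale in fAb and by 0.44 ± 0.087 in oAb (edgeR adjusted p = 0.00217 and 0.00204). With the library set as a term Glul was at -0.31 in fAb, where the call was lost (edgeR adjusted p = 0.0731).

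The ratio of Asns to Glul in TPM was 1.97 ± 0.0822 in fAb and 1.97 ± 0.0834 in oAb, against 0.788 ± 0.0773 in scramble. The aspartate aminotransferases did not pass: cytosolic Got1 was at 108 ± 4.14 CPM in fAb, 100.4 ± 4.38 CPM in oAb and 96.9 ± 9.65 CPM in scramble, and mitochondrial Got2 at 536 ± 47.7 CPM in fAb, 571 ± 65.0 CPM in oAb and 498 ± 75.4 CPM in scramble. Without scramble 3, Got2 passed at a log2 fold change of 0.25 in fAb and 0.30 in oAb (edgeR adjusted p = 0.0180 and 0.0192), and Got1 passed at 0.27 in fAb (0.00123). Within the Gm10273 set the same 3 tests were passed, Got2 at 0.31 in fAb and 0.51 in oAb and Got1 at 0.25 in fAb. Of the 50-base words of Got2 transcripts, 16.8% also occur in its pseudogene Got2-ps1, and 11.9% of those of Glul occur in other genes. On the other strand 9.00% of the exon length of Got2 overlaps Gm45760, and counts there are uncertain unless strand was used.

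Aldh18a1, which starts proline synthesis from glutamate, had 150.3, 142, 153 and 157 CPM in fAb, 153, 155, 158 and 163 CPM in oAb and 104, 102, 116 and 113 CPM in scramble. All treated libraries lay above all scramble libraries, with a log2 fold change of 0.51 ± 0.079 in fAb (edgeR adjusted p = 0.000502) and 0.54 ± 0.080 in oAb (edgeR adjusted p = 0.000362). Pycr1, which completes proline synthesis in mitochondria, was low at 2.75 ± 0.333 CPM in fAb, 2.70 ± 0.351 CPM in oAb and 2.83 ± 0.0984 CPM in scramble, and did not pass.

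Of the 3 steps from glycolysis to serine, the middle one passed. Psat1, its aminotransferase, had 414, 430.0, 430.2 and 424 CPM in fAb, 403, 404, 427 and 424 CPM in oAb and 314, 296, 345 and 331 CPM in scramble, again without overlap. It rose by 0.44 ± 0.082 on the log2 scale in fAb and by 0.37 ± 0.086 in oAb (edgeR adjusted p = 0.00155 and 0.00527). Within the Timm23 set it was at 0.32 in oAb, where the call was lost (edgeR adjusted p = 0.120). Upper quartile scaling also ended the call for Psat1 in oAb. Phgdh (ENSMUSG00000053398, chr3:98313170-98339990 on the minus strand), the dehydrogenase of the first step, had 434, 392, 478 and 479 CPM in fAb, 459.7, 488, 438 and 491 CPM in oAb and 350.0, 365, 602 and 416 CPM in scramble. Scramble 3 was above every treated library, the other scramble libraries were below all treated libraries but fAb 2, and the test was not passed (log2 0.076 ± 0.18 in fAb and 0.12 ± 0.17 in oAb). Without scramble 3 Phgdh was at 0.28 in fAb and 0.32 in oAb and passed in both (edgeR adjusted p = 0.0134 and 0.00461). It also passed in both within the Gm10273 set, at 0.41 and 0.45. Under upper quartile scaling Phgdh was at -0.11 in fAb and -0.054 in oAb. Its TPM, which was not tested, was 504 ± 26.7 in fAb, 502 ± 27.6 in oAb and 514 ± 54.3 in scramble. Of its 50-base words, 47.8% also occur in other annotated genes, 38.3% in Gm7901, so its counts are uncertain. Psph, the phosphatase of the last step, was at 16.9 to 19.9 CPM in fAb, 17.7 to 19.8 CPM in oAb and 13.3 to 22.4 CPM in scramble, and scramble 3 was again the highest of all libraries. Psph was at 0.14 ± 0.16 in fAb and 0.15 ± 0.16 in oAb, and without scramble 3 at 0.31 in both, passing (edgeR adjusted p = 0.0257 and 0.0181). It passed within the Gm10273 set at 0.51 in fAb and 0.46 in oAb. Under upper quartile scaling Psph was at -0.051 in fAb and -0.022 in oAb. Its TPM was 11.8 ± 1.37 in fAb, 11.5 ± 0.845 in oAb and 11.5 ± 1.03 in scramble. Cct6a overlaps 10.4% of the exon length of Psph on the other strand, so counts there are uncertain too unless strand was used.

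**Figure D2:**
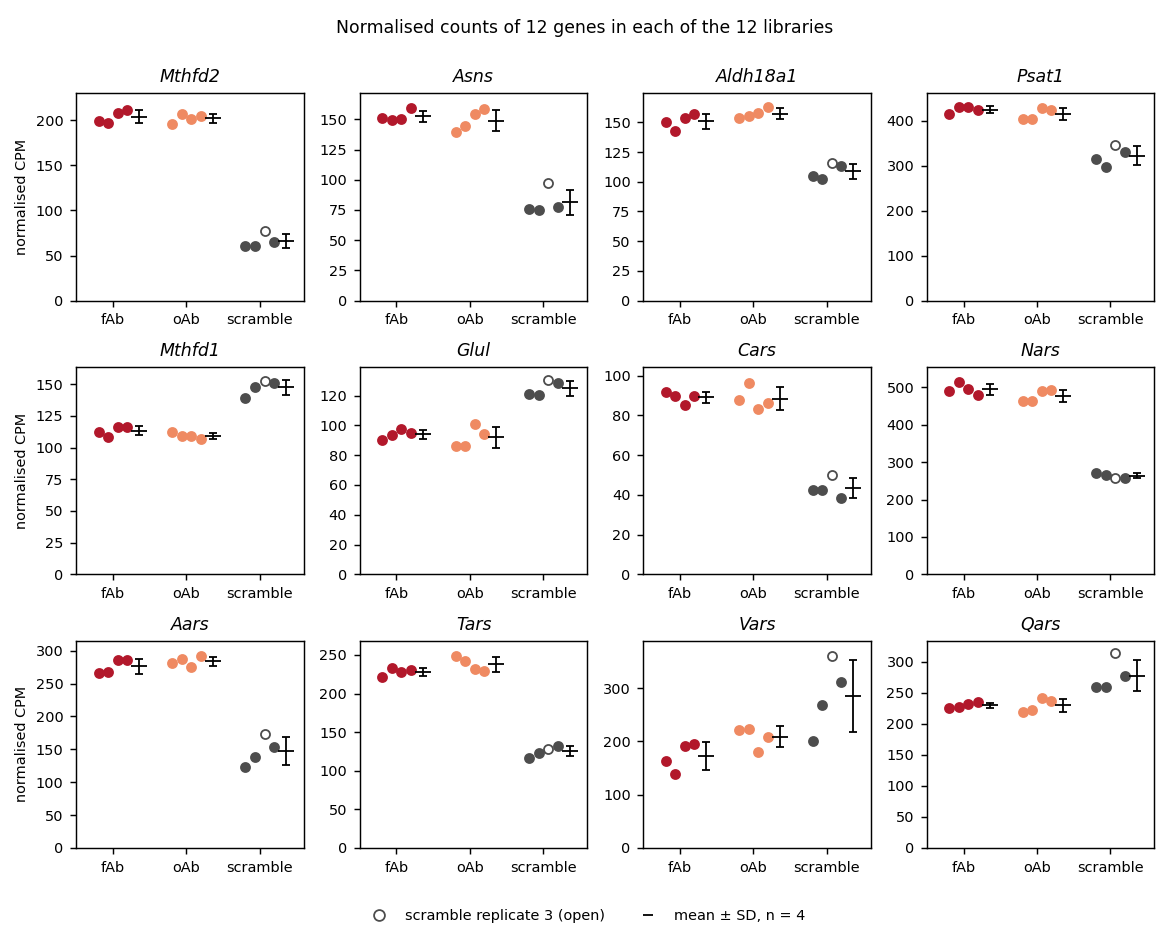
Normalised CPM (vertical axes, from 0) of 12 members in each of the 12 libraries, in the order fAb, oAb and scramble, with the mean ± SD of 4 libraries beside each group and scramble library 3 drawn open. Mthfd2 is at 196 CPM or more in treated libraries and at 76.9 CPM or less in scramble libraries, whereas oAb and scramble libraries of Vars overlap.

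Most cytosolic synthetase genes rose. In fAb 14 of the 18 rose, 3 fell (Vars, Mars and Qars) and Kars did not pass, with a median log2 fold change of 0.59. In oAb 13 rose, 2 fell (Vars and Qars) and Dars, Kars and Mars did not pass, with a median of 0.56. Among all tested genes 27.6% rose and 28.8% fell in fAb, with a median of -0.037. The shares in oAb were 25.2% and 27.0%, with a median of -0.068. The 18 genes summed to 3078 to 3303 TPM in fAb, 2873 to 3034 TPM in oAb and 2119.8 to 2479 TPM in scramble, with no overlap between treated and scramble libraries. The 15 amino acid genes summed to 2119 to 2159.7 TPM in fAb, 2026 to 2133 TPM in oAb and 2006 to 2129 TPM in scramble, ranges that overlap.

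Cars (ENSMUSG00000010755, chr7:143557230-143600090 on the minus strand), which charges cysteine tRNA, had the largest log2 fold change among them. It had 91.9, 89.6, 85.0 and 89.6 CPM in fAb, 87.6, 96.5, 83.3 and 86.0 CPM in oAb and 42.4, 42.4, 50.2 and 38.2 CPM in scramble. This was 2.11-fold in fAb (log2 1.08 ± 0.10, edgeR adjusted p = 1.86e-05) and 2.04-fold in oAb (log2 1.03 ± 0.11, edgeR adjusted p = 3.34e-05). Every treated library was above every scramble library. Nars, for asparagine, had 491, 515, 495 and 479 CPM in fAb, 465, 464, 490.1 and 493 CPM in oAb and 272, 265, 259 and 257 CPM in scramble, with log2 fold changes of 0.95 ± 0.075 in fAb and 0.86 ± 0.079 in oAb (edgeR adjusted p = 5.76e-06 and 1.48e-05). The gene that makes asparagine, Asns, and the one that loads it on tRNA were thus both higher in every treated library than in any scramble library.

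Aars, for alanine, had 266, 268, 287 and 286 CPM in fAb, 281, 287, 275 and 292 CPM in oAb and 123, 139, 173 and 153 CPM in scramble, with log2 fold changes of 0.95 ± 0.11 in fAb and 0.95 ± 0.11 in oAb. Of its annotated exon length, 14.3% overlaps Exosc6 on the same strand, so a share of its counts is uncertain, although Exosc6 had at most 78 counts in a library. Tars, for threonine, had 221, 234, 228 and 231 CPM in fAb, 249, 242, 231 and 229 CPM in oAb and 117, 123, 128 and 133 CPM in scramble, or 0.90 ± 0.077 in fAb and 0.93 ± 0.080 in oAb on the log2 scale. Rars, for arginine, had 455, 498, 479 and 482 CPM in fAb, 431, 442, 494 and 486 CPM in oAb and 256, 247, 302 and 245 CPM in scramble (log2 0.90 ± 0.10 in fAb and 0.82 ± 0.10 in oAb). Wars, for tryptophan, had 141, 129, 156 and 157 CPM in fAb, 147, 151, 160.1 and 168 CPM in oAb and 75.6, 79.5, 98.1 and 84.6 CPM in scramble (log2 0.83 ± 0.11 in fAb and 0.89 ± 0.10 in oAb). For none of these 4 genes did treated and scramble libraries overlap.

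A further group rose by less. Iars, for isoleucine, was at 315 to 323 CPM in fAb, 279.9 to 326 CPM in oAb and 151 to 213 CPM in scramble (log2 0.78 ± 0.11 in fAb and 0.67 ± 0.12 in oAb). Yars, for tyrosine, was at 175 to 195 CPM in fAb, 178 to 203 CPM in oAb and 101 to 144 CPM in scramble (log2 0.75 ± 0.12 and 0.74 ± 0.12 in the same order). Gars, for glycine, was at 329 to 348 CPM in fAb, 330.1 to 358 CPM in oAb and 214 to 271 CPM in scramble (log2 0.61 ± 0.10 and 0.58 ± 0.10). These are ranges over the 4 libraries of a group, and in all 3 genes every treated library was above every scramble library. Hars, for histidine, was at 176 to 192 CPM in fAb, 174 to 192 CPM in oAb and 116 to 148 CPM in scramble (log2 0.58 ± 0.10 in fAb and 0.53 ± 0.10 in oAb). Eprs, a fused enzyme for glutamate and proline, was at 548 to 599 CPM in fAb, 537 to 628 CPM in oAb and 362 to 444 CPM in scramble (log2 0.54 ± 0.091 and 0.47 ± 0.10). Lars, for leucine and a sensor of leucine for the mTORC1 pathway, was at 241 to 267 CPM in fAb, 225 to 247 CPM in oAb and 178 to 199.5 CPM in scramble (log2 0.46 ± 0.078 and 0.35 ± 0.082). The 3 did not overlap with scramble either. Within the Timm23 set the calls in oAb were lost for Hars (0.47, edgeR adjusted p = 0.0576), Eprs (0.41, 0.0862) and Lars (0.33, 0.0763). That for Lars in oAb was lost under upper quartile scaling as well. A term for the set left Lars at 0.37 in fAb, just short of the threshold (edgeR adjusted p = 0.0502). Hars is laid head to head with Hars2 and 7.97% of its exon length overlaps that gene on the other strand, so counts there are uncertain unless strand was used.

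At the margin of the test stood Sars, Dars and Kars. Sars, for serine, was at 269.6 to 303 CPM in fAb, 284 to 302 CPM in oAb and 179.9 to 278 CPM in scramble. It rose by 0.48 ± 0.14 in fAb and 0.48 ± 0.14 in oAb on the log2 scale (edgeR adjusted p = 0.0194 and 0.0175), and its scramble 3 library lay within the fAb range. The call was lost in fAb without fAb 3, scramble 2 or scramble 4, and in oAb without scramble 2 and within the Timm23 set (0.41, edgeR adjusted p = 0.175). Upper quartile scaling and a threshold of 0.01 ended it in both. Dars, for aspartate, had 177, 181, 178 and 171 CPM in fAb, 160.3, 158, 183 and 178 CPM in oAb and 156, 153, 142 and 153 CPM in scramble. It rose in fAb (log2 0.27 ± 0.071, edgeR adjusted p = 0.01004) and did not pass in oAb (0.17 ± 0.085, edgeR adjusted p = 0.114), although in oAb, too, the libraries did not overlap with scramble. In fAb the call was lost with the set as a term (0.24, edgeR adjusted p = 0.162), under upper quartile scaling and at a threshold of 0.01. In oAb Dars was at 0.25 within the Gm10273 set, and it passed with DESeq2 and with all 12 libraries in one fit. Kars, for lysine, had 290.0, 300.3, 342 and 342 CPM in fAb, 299.9, 318, 357 and 368 CPM in oAb and 224, 222, 336 and 256 CPM in scramble. Scramble 3 lay within the treated range and the other scramble libraries below it, at a log2 fold change of 0.33 ± 0.15 in fAb and 0.37 ± 0.15 in oAb. Without scramble 3 Kars passed at 0.49 in fAb and 0.52 in oAb (edgeR adjusted p = 0.000359 and 0.000382). It also passed in both within the Gm10273 set, at 0.57 and 0.73, and with the replicate number as a block. In oAb it passed with DESeq2, limma voom and all 12 libraries in one fit as well.

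Vars, Qars and Mars were lower in treated cells, by amounts that depended on which libraries were compared and how they were scaled. In TPM, which was not tested, Vars was at 86.3 ± 9.76 in fAb, 99.0 ± 10.9 in oAb and 151 ± 22.0 in scramble. Qars was at 98.5 ± 2.76, 93.0 ± 2.77 and 127 ± 7.48 TPM in the same order. Mars was at 90.6 ± 3.16, 87.9 ± 2.72 and 121 ± 2.15 TPM. Vars (ENSMUSG00000007029, chr17:35000987-35016322 on the plus strand), for valine, had 163, 139, 192 and 195 CPM in fAb, 222, 223, 180.3 and 209 CPM in oAb and 201, 269, 359.6 and 312 CPM in scramble. All fAb libraries were below all scramble libraries, and scramble 1 was within the oAb range. Vars fell by 0.69 ± 0.18 on the log2 scale in fAb and by 0.45 ± 0.17 in oAb (edgeR adjusted p = 0.0105 and 0.0484). Within the Gm10273 set Vars was at -0.16 in fAb and -0.011 in oAb and passed in neither, and within the Timm23 set it was at -0.49 in oAb (edgeR adjusted p = 0.0674). Without scramble 3 it was at -0.56 in fAb (edgeR adjusted p = 0.0169) and -0.32 in oAb, where the call was lost (edgeR adjusted p = 0.0785). A term for the library set left Vars at -0.17 in fAb and -0.33 in oAb, passing in neither (edgeR adjusted p = 0.588 and 0.0705). Leaving out any 1 oAb library, scramble 2 or scramble 4 also ended the call in oAb.

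Qars, for glutamine, had 225, 227, 231 and 235 CPM in fAb, 219, 223, 241 and 236 CPM in oAb and 260.1, 259.9, 314 and 277 CPM in scramble. No treated library reached the scramble libraries, with log2 fold changes of -0.24 ± 0.088 in fAb and -0.27 ± 0.092 in oAb (edgeR adjusted p = 0.0439 and 0.0328). Within the Gm10273 set Qars was at -0.12 in fAb and -0.086 in oAb, passing in neither. Within the Timm23 set it was at -0.35 in oAb and did not pass either (edgeR adjusted p = 0.104), nor did it in fAb with the set as a term (-0.12). Mars, for methionine and so for the start of every protein, had 106, 105, 109.5 and 119.6 CPM in fAb, 106, 113, 115 and 119 CPM in oAb and 124, 126, 166 and 136 CPM in scramble. It was at -0.29 ± 0.11 in fAb and -0.29 ± 0.11 in oAb, past the threshold in fAb alone (edgeR adjusted p = 0.0499 in fAb and 0.0524 in oAb). In fAb Mars did not pass within the Gm10273 set (-0.11) or with the set as a term (-0.12). Without scramble 3 Mars passed in oAb too, at -0.18 (edgeR adjusted p = 0.0288). Of the 20 alternatives tried in fAb, 12 ended the call for Qars and 13 that for Mars, among them leaving out any 1 fAb library or scramble 4. For Qars in oAb, leaving out any 1 oAb library or scramble 4 did the same.

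With the library set as a term of the fit, which rests on scramble 1 as the single control of the Gm10273 set, 16 members rose and none fell in fAb. Over all genes 3844 were called there, against 6235 without the term. The 6 calls of lower levels and those for Dars and Lars were lost there. Within the Gm10273 set alone the median log2 fold change in fAb was 0.50 over the members and -0.0062 over all genes. Mthfd1 and Glul were at -0.24 and -0.30 there. In oAb 17 members rose and 3 fell with the term, the call for Vars being lost. Over all genes 5734 were called in that fit, against 5761 without the term. Without scramble 3, 23 members rose and 6 fell in fAb, and 21 rose and 4 fell in oAb. Calls over all genes went up as well, to 7598 of 11169 in fAb and 7174 of 11148 in oAb, against 6235 and 5761 with scramble 3. Mthfd2, Asns, Aars, Cars, Iars, Nars, Rars, Tars, Wars and Yars passed as higher in both treatments under every alternative tried, which was so for no member that fell. The falls of Mthfd1 and Glul were lost in oAb to the 1.5-fold minimum alone, and in fAb to that minimum and the set term.

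**Figure D3:**
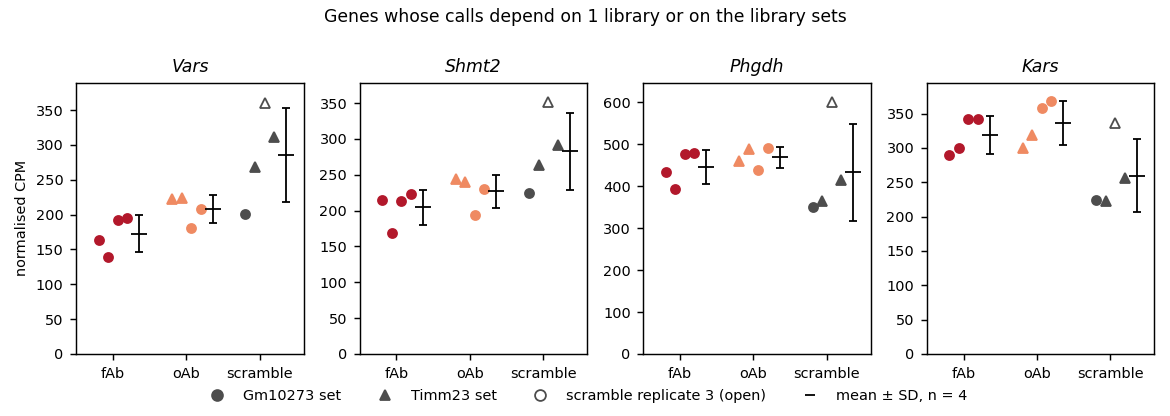
Normalised CPM (vertical axes, from 0) of Vars, Shmt2, Phgdh and Kars by library in the order fAb, oAb and scramble, with triangles for the Timm23 set, circles for the Gm10273 set, scramble library 3 open and the mean ± SD of 4 libraries beside each group. The single scramble library of the Gm10273 set is the lowest of its group for Vars, Shmt2 and Phgdh, and scramble 3 is the highest of its group for all 4 genes.

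Synthetases belong to 2 unrelated classes of catalytic domain. Eprs joins a class I part for glutamate to a class II part for proline, and is counted in class I. Of the 10 class I enzymes, 7 rose and 3 fell in fAb and 7 rose and 2 fell in oAb. Of the 8 class II enzymes, 7 rose in fAb and 6 in oAb, and none fell. Of the 8 synthetases of the multisynthetase complex, 5 rose and 2 fell in fAb and 4 rose and 1 fell in oAb, with median log2 fold changes of 0.40 and 0.36. Of the 10 outside it, 9 rose and 1 fell in each treatment, with medians of 0.79 in fAb and 0.80 in oAb. The shares over all tested genes were 27.6% higher and 28.8% lower in fAb and 25.2% and 27.0% in oAb. These splits of the synthetases were not tested against each other.

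Genes for the other parts of these machines were mixed. Eef1e1, a scaffold protein of the complex, rose to 97.5 ± 2.91 CPM in fAb and 95.1 ± 3.70 CPM in oAb, against 42.9 ± 4.16 CPM in scramble (log2 1.22 ± 0.094 and 1.15 ± 0.10). The scaffold genes Aimp1 (-0.22 ± 0.15 in fAb and -0.23 ± 0.15 in oAb) and Aimp2 (0.20 ± 0.16 and 0.25 ± 0.16) did not pass. Of the exon length of Aimp2, 29.4% overlaps Eif2ak1 on the other strand. Farsb, a subunit of the phenylalanine enzyme, rose by 0.47 ± 0.089 in fAb and 0.46 ± 0.10 in oAb on the log2 scale. Its partner Farsa was at 0.29 ± 0.12 and 0.33 ± 0.12, past the threshold in oAb alone. Tarsl2, a further threonine enzyme, fell by 0.80 ± 0.14 and 0.79 ± 0.13.

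For most amino acids mitochondria use synthetases encoded by separate nuclear genes, and the list here holds none for glycine, glutamine or lysine. Of 17 such genes, all tested, 2 rose and 11 fell in fAb, with a median log2 fold change of -0.49. In oAb 2 rose and 13 fell, with a median of -0.53. Among all tested genes 27.6% rose and 28.8% fell in fAb and 25.2% and 27.0% in oAb, with medians of -0.037 and -0.068. Vars2, for valine, was at 14.1 ± 1.48 CPM in fAb and 16.3 ± 1.43 CPM in oAb, against 40.9 ± 6.74 CPM in scramble, which is 2.83-fold lower in fAb (edgeR adjusted p = 2.37e-05). Treated and scramble libraries of Vars2 did not overlap. Hars2 (-0.57 ± 0.10 in fAb and -0.71 ± 0.11 in oAb) and Sars2 (-0.89 ± 0.16 and -0.62 ± 0.16) also fell. The rises were Lars2, at 2067 ± 328 CPM in fAb and 1999 ± 346 CPM in oAb, against 1528 ± 131 CPM in scramble, and Rars2 (0.38 ± 0.087 and 0.24 ± 0.091 on the log2 scale). Both rises were lost with the library set as a term (edgeR adjusted p = 0.249 and 0.155 in fAb). Under that fit 6 of the 17 fell in fAb and 13 in oAb, and none rose. Over all genes 1824 of 11074 fell in fAb and 2947 of 11033 in oAb under it. Transcripts of the mitochondrial genome also took a lower share of counts in treated libraries, as given above.

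In the 14 pairs described here both a cytosolic and a mitochondrial enzyme for an amino acid were tested. The cytosolic gene had the higher log2 fold change in 12 of 14 pairs in each treatment. It rose while its mitochondrial counterpart fell in 7 pairs in fAb (those of Aars, Cars, Eprs, Hars, Iars, Sars and Wars) and in 9 pairs in oAb (those of Aars, Cars, Eprs, Hars, Iars, Nars, Sars, Tars and Wars). Both fell for valine, and both rose for leucine and arginine.

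**Figure D4:**
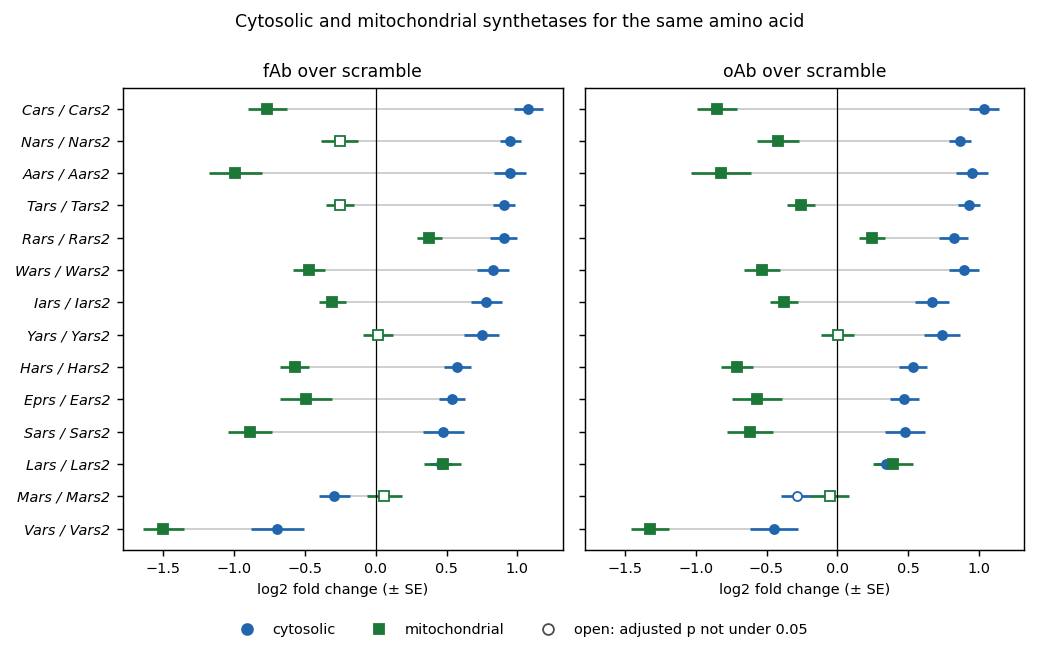
Log2 fold change with bars of 1 SE for cytosolic (circles) and mitochondrial (squares) synthetases of 14 pairs, in fAb (left) and oAb (right) over scramble, n = 4 libraries per group. Open points did not pass an adjusted p of 0.05. Mitochondrial points lie left of their cytosolic partners in 12 of 14 pairs in each panel.

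Genes next to the members in these pathways were called in both directions, as were genes in general. Of 21 tested folate and methionine genes 8 rose and 8 fell in fAb and 7 rose and 6 fell in oAb, with medians of -0.036 and -0.058. Over all tested genes 27.6% rose and 28.8% fell in fAb and 25.2% rose and 27.0% fell in oAb. Mtrr, the reductase that keeps methionine synthase active, rose by 1.32 ± 0.12 in fAb and 1.21 ± 0.12 in oAb on the log2 scale, and Mat2a, which makes S-adenosylmethionine, by 1.11 ± 0.16 and 0.94 ± 0.16. Dld, a subunit of the glycine cleavage system, rose by 0.55 ± 0.082 and 0.42 ± 0.088.

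Of 15 other tested amino acid genes 3 rose and 4 fell in each treatment, with medians of -0.13 in fAb and -0.16 in oAb. In this list of only 15 genes the shares that fell are near those of all tested genes, and the shares that rose are somewhat below. Cth, which completes the cysteine synthesis that Cbs starts, rose to 37.8 ± 3.31 CPM in fAb and 35.7 ± 3.52 CPM in oAb, against 3.97 ± 0.491 CPM in scramble. Cbs, by contrast, had 11, 8 and 27 counts in fAb, oAb and scramble. Ass1, of arginine synthesis, rose to 143 ± 11.1 CPM in fAb and 157 ± 10.5 CPM in oAb, against 14.2 ± 2.44 CPM in scramble. Bcat1, the cytosolic branched-chain aminotransferase, rose by 1.83 ± 0.080 and 1.82 ± 0.10 on the log2 scale, and Asrgl1, which hydrolyses asparagine, fell by 1.45 ± 0.11 and 1.42 ± 0.12.

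The integrated stress response list had 26 tested genes. In fAb 14 of them rose and 3 fell, and in oAb 15 rose and 2 fell, with medians of 0.71 and 1.21. Among all tested genes 27.6% rose and 28.8% fell in fAb and 25.2% and 27.0% in oAb. The all-gene medians were -0.037 and -0.068. Atf4 had 339.8, 336, 339.6 and 323 CPM in fAb, 376, 379, 308 and 321 CPM in oAb and 84.7, 82.0, 74.8 and 62.5 CPM in scramble, or 2.18 ± 0.11 in fAb and 2.19 ± 0.13 in oAb on the log2 scale. Trib3, a pseudokinase gene and known Atf4 target, rose by 3.10 ± 0.24 and 3.21 ± 0.27, and the transcription factor gene Atf3 by 1.93 ± 0.081 and 1.89 ± 0.092. The transporter genes Slc1a4, for alanine, serine and cysteine, and Slc7a11, for cystine, rose by 2.61 ± 0.13 and 6.10 ± 0.22 in fAb. A link between these genes and the members was not tested, and Atf4 protein was not measured.

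Set against each other, the fAb and oAb libraries showed no member past the threshold of edgeR's test, nor any of 10878 genes (0%). At an unadjusted p under 0.05 there were 1391 genes, of which 1 was a member, Vars. DESeq2 called 16 genes, none of them members, and limma voom called 0. The members' log2 differences, fAb over oAb, ran from -0.27 (Vars, 172 ± 26.4 CPM in fAb and 209 ± 19.9 CPM in oAb, edgeR adjusted p = 0.375) to 0.10 (Got1, edgeR adjusted p = 0.401), with SE of 0.044 to 0.16. Shmt1 was at 0.10 ± 0.052 and Shmt2 at -0.15 ± 0.10. For no tested member did the libraries of the 2 groups lie fully apart, against 6.31% of all tested genes. A p that misses the threshold does not show that the preparations act alike.

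In the authors' deposited table, 17 members were higher and 1 lower at an adjusted p under 0.05 in fAb, and 15 higher and 2 lower in oAb. The share of all genes called there was not worked out, so these counts have no background beside them. All 18 in fAb and all 17 in oAb were called in the same direction by edgeR above. Dars, Glul, Mars, Mthfd1, Qars and Shmt2 in fAb, and Lars, Psat1, Qars and Vars in oAb, passed with edgeR and not in the authors' deposited table.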

How the data were processed

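RNA of 12 IMG samples, grouped by title, was made, per the labels' protocols, into stranded mRNA libraries. The file headers name trimmed reads. Coordinates are on mm10, the build in the submitters' processing notes. Neither the aligner nor the counter, nor any use of strand, is given in the sources used. In 2 tables of 41325 genes the authors deposited counts, RPKM, TPM, a CPM column that holds a signal on a normalised library size, a signed fold change (a score), a log2 fold change and p-values. Counts were tested and TPM served to compare levels between genes, whereas RPKM and the signal were not used. Scramble counts were identical in both tables.

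Each comparison was fitted on its 8 libraries with edgeR 4.0.16 (R 4.3.3): filterByExpr with a minimum count of 10, TMM, a robust two-sided quasi-likelihood F test, and Benjamini-Hochberg adjustment over all tested genes at 0.05. SE is the size of the log2 fold change over the root of F. Printed CPM was scaled over all 12 libraries, so ratios of its means differ slightly from fitted folds. The script was tested on simulated counts. Alternatives were other scalings (DESeq2 size factors, upper quartile), no filter or one at 2 CPM, DESeq2 1.42.0, limma 3.58.1 voom, a replicate block, all libraries in one fit, each library left out, library sets (split at 50% of Timm23 plus Gm10273 counts at Timm23) as a term or alone, a threshold of 0.01 and a 1.5-fold minimum. Members and lists were chosen with earlier results of these data known.

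All members are named, with values by library for the 3 largest rises and falls of the amino acid genes and of the synthetases. Of each other list the 4 genes with the smallest adjusted p in fAb are named, except some genes that are not reported here, which the counts over their lists include and the counts over pairs leave out. Psat1, Phgdh, Rars, Wars, Dars, Kars and Atf4 were given by library, and Lars2 and Rars2 named, after their values were seen. Of the marker lists of other cell types, sums and defining genes are given. Overlaps and shared words come from GENCODE M21 and promoter windows from RefSeq. No libraries of a group agreed within counting error (chi-square over degrees of freedom of 2.91 or more).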

Additional observations from a re-analysis of the deposited data

Results flagged for a closer look

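Of 99 sets of 4 libraries, 1 for each member and group, 6 had a library set far apart from the other 3 by Dixon's test, where chance gives about 1 in 20. Asns was at 96.9 CPM in scramble 3, against 75.0 to 77.8 CPM in the other scramble libraries, and Gars at 271 CPM in scramble 3, against 214 to 217 CPM. In CPM the scramble libraries averaged 81.3 ± 10.5 for Asns and 229 ± 27.6 for Gars (SD, n = 4). In TPM they lay closer together, at 89.0 ± 2.67 for Asns and 220 ± 8.90 for Gars. Dixon's test was run on CPM only, so whether scramble 3 stands apart in TPM was not tested. Shmt2 was at 168 CPM in fAb 2, against 214 to 223 CPM in the other fAb libraries, and Lars at 267 CPM in fAb 2, against 241 to 244 CPM. Eprs was at 548 CPM in fAb 1, against 596 to 599 CPM. Cbs was at 0.328 CPM in fAb 3, against 0.112 to 0.122 CPM.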

How the results depend on the processing

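The counts of members past the threshold, 24 in fAb and 21 in oAb, stayed within 1.5 times under each alternative that could be fitted except the 1.5-fold minimum, with 12 in fAb and 10 in oAb. The 16 in fAb with the library set as a term and the 14 in oAb within the Timm23 set lie at that margin. With 1 library left out, 20 to 29 members passed in fAb and 19 to 25 in oAb, most without scramble 3. Over all genes, too, the most were called without scramble 3, 7598 in fAb and 7174 in oAb. The totals of members hide those that fell, 6 in fAb and 4 in oAb. Of falls, 3 were called in fAb without any 1 fAb library or scramble 4 and 0 with the library set as a term, and 2 in oAb without any 1 oAb library or scramble 4. Over all genes 3844 passed in fAb with the library set as a term, 3792 in oAb within the Timm23 set, and 16 with DESeq2 in fAb against oAb. Under upper quartile scaling the median log2 fold change of all genes was -0.23 in fAb and -0.24 in oAb, with 2273 higher and 4361 lower in fAb and 2127 higher and 4015 lower in oAb, and with 16 members higher and 6 lower in fAb and 14 and 7 in oAb. Signs of values that passed no test turned under that scaling for Phgdh (-0.11 in fAb and -0.054 in oAb), Psph (-0.051 and -0.022), Mthfd1l (-0.10 and -0.11), Got2 (-0.045 in fAb) and Got1 (-0.12 in oAb). Got1 was at -0.0054 in oAb within the Timm23 set. Pycr1 was at 0.011 in fAb with DESeq2 size factors and at 0.013 with DESeq2, and at 0.024 in oAb within the Gm10273 set, where Aimp1 was at 0.030. With 1 library left out, Pycr1 in fAb ran from -0.076 to 0.083 and Phgdh from -0.030 to 0.28. The cause was not tested. Correlations of same-numbered deviations ran from -0.25 to 0.24, and between fAb and scramble from 0.088 to 0.20. Such values cannot show whether same-numbered samples were paired. With a replicate block 19 members rose and 4 fell in fAb and 18 rose and 2 fell in oAb. Over all genes 6292 were called in fAb and 5081 in oAb with that block. Of the 28 members other than Vars, Got1, Shmt1 and Shmt2, 16 changed sign in fAb against oAb in at least 1 setting and none passed. Where a group keeps 1 library, it is assumed to vary like the others. Depth limits Cbs and Pycr1 most.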
